A study of Mus musculus with 6 samples.

Results

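The 41 genes described here encode the transcription factor NRF2 with its closest partners, the glutathione and thioredoxin enzymes and conjugating enzymes that NRF2 is reported to induce, and the enzymes that remove superoxide and peroxides or supply NADPH. They were chosen by symbol, as a list of known members of these systems, with earlier results of these data known. All 41 were among the 18124 genes of the deposited table and among the 14644 genes tested. They were measured by bulk RNA sequencing in stromal cells sorted from the quadriceps of 6 naive male mice whose collagen 1 promoter drives a green fluorescent protein (Col1-GFP), as cells positive for that protein and for Sca-1. The study calls them mesenchymal stem cells; they were used at passage 4, and the labels put them in 2 groups of 3 libraries.

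The senescent-medium group spent 72 hours in conditioned medium whose source was macrophages grown from wild type mouse bone marrow and made senescent with 300 µM hydrogen peroxide, given for 3 hours, given again 3 days later, and followed by 14 days of culture. The control-medium group spent the same time in medium from control macrophages that were not senescent, and the sources used here do not say whether those macrophages were cultured as long. All 6 libraries thus come from the same Col1-GFP, Sca-1-positive cell type in macrophage-conditioned medium, each medium was pooled over repeated collections, and there was no group without macrophage products. The labels do not tie the 3 libraries of a medium to different animals, isolates of cells or lots of medium, and the p-values below therefore rest on a spread that may be technical.

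NRF2, the product of Nfe2l2, is held at a low level by KEAP1, which presents it to a ubiquitin ligase for degradation. Oxidants and electrophiles modify cysteines of KEAP1, after which NRF2 accumulates, pairs with a small MAF protein such as MAFG and binds antioxidant response elements, sites for which the repressor BACH1 competes. Its target genes make glutathione, keep glutathione and thioredoxin reduced with NADPH, and conjugate or export reactive compounds. Superoxide dismutases turn superoxide into hydrogen peroxide, which catalase, glutathione peroxidases and peroxiredoxins remove.

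Of the 41 genes, 29 were higher and 5 lower in senescent medium than in control medium, and 7 did not pass the test (edgeR quasi-likelihood test, Benjamini-Hochberg adjusted p under 0.05 over all tested genes). Among all 14644 tested genes 49.5% passed, 24.6% as higher and 24.9% as lower, against 70.7% higher and 12.2% lower among these 41. The list was made with earlier results of these data known, so this contrast is a description. The median log2 fold change, senescent over control medium throughout, was 0.29 for the 41 genes and −0.0010 for all tested genes. Changes were mostly small: 7 of the 41 passed with a log2 fold change of 0.5 or more in size, all of them higher, where 8.21% of all tested genes rose by as much and 8.75% fell by as much (17% in either direction). In 28 of the 41 genes every senescent-medium library lay above every control-medium library, and in 5 every one lay below, against 27.8% and 28% of all tested genes (55.8% in either direction). Summed over the 41 genes, the level was 8267 ± 180 CPM (counts scaled to the size of each library) in senescent medium and 6673 ± 146 CPM in control medium (SD, n = 3 each). With libraries scaled by their totals alone, 25 of the 41 were higher and 7 lower, and over all tested genes 2589 were higher and 4813 lower, in place of 3607 and 3644.

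**Figure D1:**
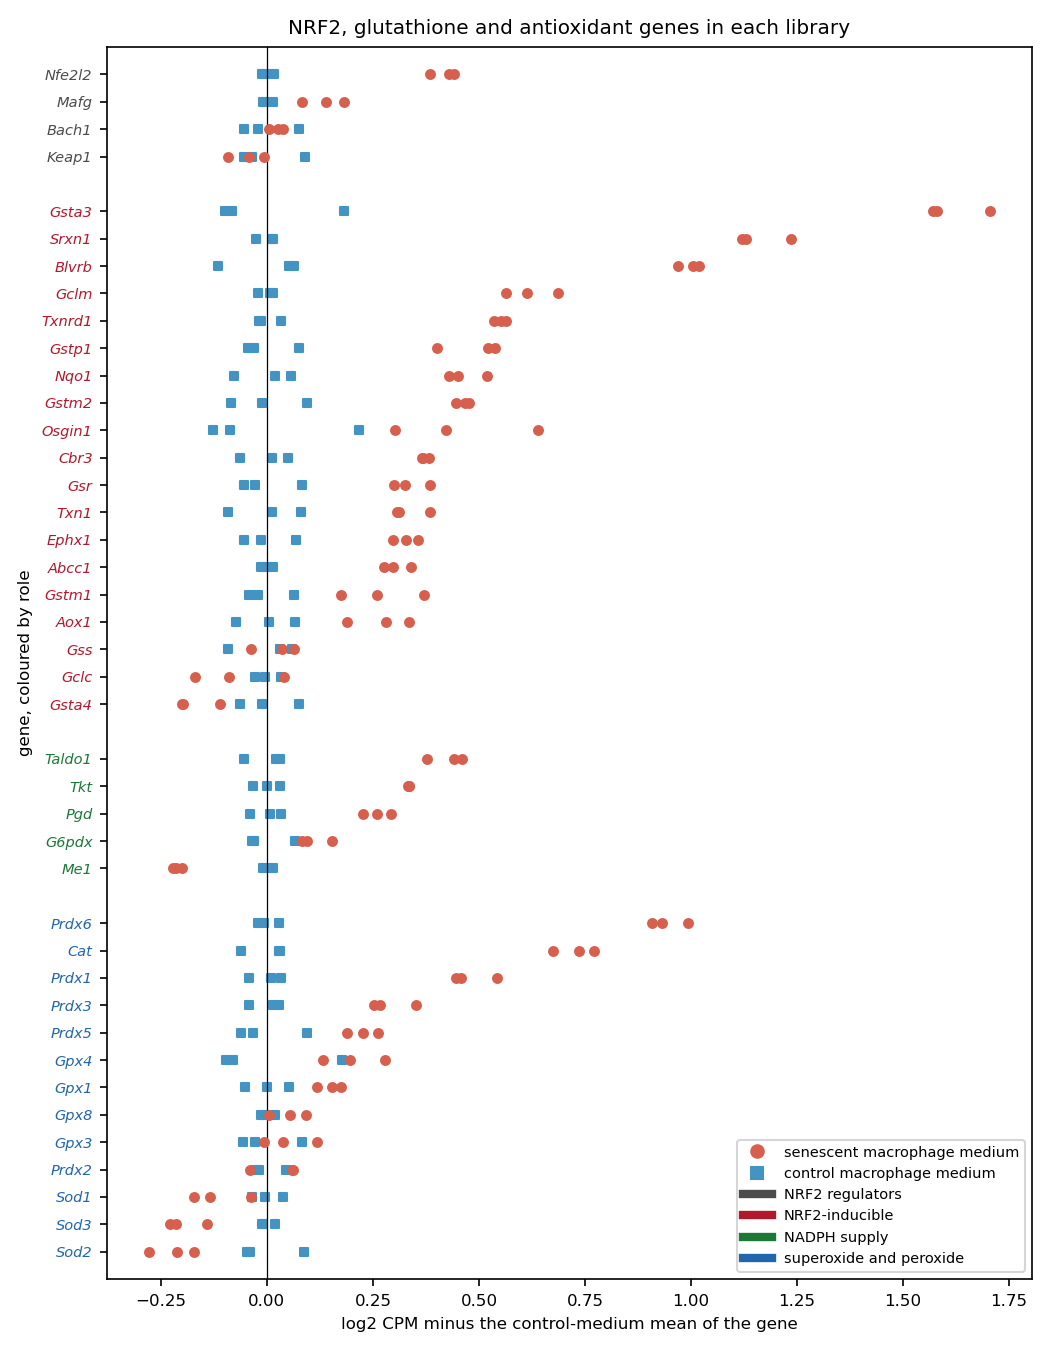
Log2 CPM of each of the 41 genes in each library, minus the gene's mean over the 3 control-medium libraries, with genes in rows grouped and coloured by role. Circles are senescent-medium libraries and squares control-medium libraries; the circles of Gsta3, Srxn1, Blvrb, Prdx6 and Cat lie farthest to the right, and those of Me1, Gsta4 and the 3 superoxide dismutase genes lie left of the squares.

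Libraries held 17228162 to 21659434 estimated counts, and the lowest value of any of the 41 genes was 4.00 CPM, for Gsta3 in control-medium replicate 1. Of 10 stromal markers all 10 were listed in the table, and their summed level was 18476 to 18999 CPM in senescent medium and 13934 to 14005 CPM in control medium, with Lum under 1 CPM. Most of that sum came from Col1a1, Col1a2 and Col3a1, which rose by 0.49, 0.54 and 0.48 on the log2 scale; Pdgfra and Pdgfrb were called lower (−0.29 and −0.30), and Ly6a, which encodes Sca-1, did not pass (0.034 ± 0.035). Of 14 macrophage markers 5 were listed, with summed levels of 18.1 to 24.2 CPM in senescent medium and 19.0 to 21.97 CPM in control medium; the defining markers Ptprc, Adgre1 and Itgam were not listed. Of those listed, Lyz2 was called higher (log2 fold change 0.80 ± 0.12), Cd14 and Csf1r were called lower (−1.14 ± 0.16 and −0.53 ± 0.19), and Cd68, which did not pass, averaged 1.69 ± 0.663 CPM in senescent medium and 1.19 ± 0.386 CPM in control medium. Of 6 endothelial markers 4 were listed, at 26.3 to 33.2 CPM in senescent medium and 24.2 to 26.5 CPM in control medium, nearly all of it Tek. Of 7 myogenic markers Des and Acta1 were listed, and both were higher in senescent medium, at summed levels of 17.5 to 19.8 CPM against 9.41 to 11.1 CPM in control medium. The part of these markers in the results was not tested, and in bulk RNA fewer cells of a type and less RNA per cell cannot be told apart.

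Among the 4 regulators, the transcript of NRF2 itself was higher and those of its 2 opponents did not pass the test. Nfe2l2 (ENSMUSG00000015839) stood at 211, 213 and 205 CPM in senescent medium, against 155, 158 and 156 CPM in control medium, with no overlap between media. Its log2 fold change was 0.42 ± 0.036 (adjusted p = 3.57e-11, edgeR; here and below, ± after a log2 fold change is the SE). Keap1 (ENSMUSG00000003308) had 71.8, 69.3 and 73.5 CPM in senescent medium and 78.6, 72.0 and 71.1 CPM in control medium, values that overlapped. Its log2 fold change of −0.047 had a 95% interval of −0.15 to 0.053 (adjusted p = 0.453, edgeR), although it passed the threshold at −0.13 when libraries were scaled by totals alone (adjusted p = 0.0346). Exons of a gene on the opposite strand cover 10.9% of Keap1, and whether counting used strand is not stated in the sources. The level of Nfe2l2 relative to Keap1, each per kilobase of merged exons, was 3.64, 3.79 and 3.44 in senescent medium and 2.44, 2.72 and 2.72 in control medium, a ratio chosen after its values were seen and given as a description.

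Mafg, a small MAF partner of NRF2, had 67.2, 64.6 and 69.2 CPM in senescent medium and 60.8, 60.6 and 61.6 CPM in control medium. The groups were close but did not overlap, and the log2 fold change of 0.14 ± 0.048 passed narrowly (adjusted p = 0.0199, edgeR). That call was lost with DESeq2 (adjusted p = 0.059), with library totals (0.369), and in edgeR without senescent-medium replicate 1 or 3 (0.0505 and 0.0928) or control-medium replicate 2 (0.0545). Bach1, the competing repressor, was at 39.8, 40.4 and 40.8 CPM in senescent medium and 38.3, 41.8 and 39.1 CPM in control medium. The control libraries of Bach1 lay on both sides of the senescent ones, with a log2 fold change of 0.020 (95% interval −0.099 to 0.14), which became −0.0098 without control-medium replicate 1 and −0.061 with library totals.

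Among the 19 NRF2-inducible genes, 16 were higher (84.2%), 1 was lower and 2 did not pass. Of all tested genes 24.6% were higher and 24.9% lower. The share of rises was the highest of the role groups, but NADPH supply was close (4 of 5, 80%) and the difference was not tested. The median log2 fold change was 0.37. A log2 fold change of 0.5 or more was found for 5 of the 19, namely Gsta3, Srxn1, Blvrb, Gclm and Txnrd1, against 8.21% of all tested genes. For each of the 16 genes called higher the libraries of the media did not overlap, as for 27.8% of all tested genes. The number called higher was also 16 under each alternative fit run.

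All 3 thioredoxin system genes of this group were higher, as were 24.6% of all tested genes. Srxn1 (ENSMUSG00000032802) encodes sulfiredoxin, which restores peroxiredoxins that have been over-oxidised. It was at 304, 281 and 283 CPM in senescent medium, against 130.5, 130.2 and 127 CPM in control medium. Every senescent library thus held more than any control library by a wide margin, and the log2 fold change of 1.16 ± 0.0385 exceeded that of all but 1.92% of the tested genes (adjusted p = 2.91e-21, edgeR). Txnrd1, the selenium-containing cytosolic thioredoxin reductase, had 379, 376 and 372 CPM in senescent medium and 254, 262 and 253 CPM in control medium. The libraries of each medium lay within a narrow range, and Txnrd1 rose by 0.55 ± 0.034 on the log2 scale (adjusted p = 1.04e-14, edgeR). Its substrate thioredoxin, Txn1, rose by less, to 137 ± 4.24 CPM in senescent medium against 109 ± 6.52 CPM in control medium (log2 fold change 0.33 ± 0.044).

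Of the 3 glutathione synthesis genes, Gclm was higher and Gclc and Gss did not pass. Glutamate-cysteine ligase, the enzyme of the rate-limiting step, joins a catalytic subunit encoded by Gclc and a modifier subunit encoded by Gclm. Gclm (ENSMUSG00000028124) stood at 355, 338 and 326 CPM in senescent medium and 217, 223 and 222 CPM in control medium, and rose by 0.62 ± 0.036 on the log2 scale (adjusted p = 3.09e-15, edgeR). Gclc (ENSMUSG00000032350) had 132, 114 and 120.3 CPM in senescent medium and 128, 131 and 126 CPM in control medium. For the catalytic subunit the highest value and the lowest both came from senescent-medium libraries, and its log2 fold change of −0.071 had an interval of −0.16 to 0.022 (adjusted p = 0.204, edgeR). Without senescent-medium replicate 1, Gclc was called lower (log2 fold change −0.13, adjusted p = 0.0267), as it was with library totals (−0.15, adjusted p = 0.00578). The level of Gclm relative to Gclc, each per kilobase, was 1.62, 1.78 and 1.62 in senescent medium and 1.02, 1.02 and 1.06 in control medium, again as a description.

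Gss, which adds glycine in the second step of glutathione synthesis, was at 41.3 ± 1.52 CPM in senescent medium and 40.7 ± 2.25 CPM in control medium. Its log2 fold change of 0.020 (interval −0.10 to 0.14) took the opposite sign without senescent-medium replicate 1 (−0.0009), without control-medium replicate 3 (−0.025) and with library totals (−0.061), and it passed the test in none of these. Gsr, glutathione reductase, had 34.9, 37.0 and 35.5 CPM in senescent medium and 27.8, 27.3 and 30.0 CPM in control medium. The reductase was thus higher in each senescent library than in any control library, by 0.34 ± 0.064 on the log2 scale (adjusted p = 5.6e-05, edgeR).

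The glutathione S-transferase genes, which attach glutathione to electrophiles, moved in both directions. Gsta3 (ENSMUSG00000025934), of the alpha class, had the largest rise of the 41 genes at a low level: 12.96, 13.05 and 14.2 CPM in senescent medium, against 4.00, 4.89 and 4.05 CPM in control medium. Its log2 fold change of 1.63 ± 0.12 was exceeded by 0.697% of all tested genes (adjusted p = 1.37e-12, edgeR). Gsta4, the alpha-class member known for conjugating aldehydes from oxidised lipids, was the 1 gene of this group that fell, to 125 ± 4.40 CPM in senescent medium against 141 ± 6.98 CPM in control medium (log2 fold change −0.17 ± 0.042, adjusted p = 0.00125, edgeR). The mu-class genes Gstm1 and Gstm2 and the pi-class gene Gstp1 rose, with log2 fold changes of 0.27 ± 0.0445, 0.46 ± 0.044 and 0.49 ± 0.042. Copies limit what can be said of single transferases. Of the 50-base stretches in Gstp1 transcripts 33.7% also occur in Gstp2, and 18.9% of those of Gstm1 occur in other genes. How far this affects the counts of these genes is not known, since reads were longer and their counting is not described.

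The remaining genes of the NRF2-inducible group were all called higher. Apart from Osgin1, they act on quinones, carbonyls, epoxides and haem products or export conjugates. Of carbonyl-reducing genes outside the 41, Cbr1, Akr1b3 and Akr1b10 were called lower (log2 fold changes −0.33 ± 0.0615, −0.24 ± 0.061 and −0.33 ± 0.082). Akr1a1, Akr1b8 and Akr1c13 were called higher (0.24 ± 0.036, 0.20 ± 0.060 and 1.12 ± 0.36). Akr1c13 was low, at 1.70 CPM in senescent medium and 0.756 CPM in control medium. All of these except Akr1b10 were chosen after their values were seen. Nqo1 (ENSMUSG00000003849), the quinone reductase often used as a readout of NRF2, had 269.6, 257 and 253 CPM in senescent medium and 191, 196 and 178 CPM in control medium. The media did not overlap, and Nqo1 rose by 0.47 ± 0.039 on the log2 scale (adjusted p = 1.48e-11, edgeR). Blvrb (ENSMUSG00000040466), biliverdin reductase B, was at 63.0, 62.4 and 60.9 CPM in senescent medium, against 32.2, 32.5 and 28.6 CPM in control medium. With a log2 fold change of 0.996 ± 0.058 it was the third largest rise among the 41 (adjusted p = 2.83e-15, edgeR). The carbonyl reductase gene Cbr3 rose by 0.37 ± 0.056, the aldehyde oxidase gene Aox1 by 0.27 ± 0.078 and the growth inhibitor gene Osgin1 by 0.46 ± 0.097 on the log2 scale. Ephx1, which hydrolyses epoxides, and Abcc1, which exports glutathione conjugates, rose by 0.33 ± 0.036 and 0.30 ± 0.037. These 5 smaller rises had adjusted p-values from 4.62e-09 for Ephx1 to 0.00458 for Aox1 (edgeR).

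Promoter sequences are shown because NRF2 is known to bind a short motif, whose letters can be looked for near each start. They were taken from RefSeq on build GRCm38.p6, a table that holds windows for 35 of the 41 genes, each reaching from 250 bases before a start to 50 bases after it. The core of the antioxidant response element, TGACNNNGC, was searched on both strands. It was present in a window of 11 of the 35 genes (31.4%), against 14% of all 27025 genes in the table. The 11 genes were Nfe2l2, Mafg, Gclm, Txnrd1, Srxn1, Gsta3, G6pdx, Pgd, Me1, Prdx1 and Sod1, of which 9 were called higher and 2 lower. Some genes have several starts, and Txnrd1, Pgd and Me1 also had windows without a match. Of the 24 genes whose windows lacked these letters, 17 were called higher and 1 lower, so rises were common in both classes. Among all tested genes 24.6% were higher and 24.9% lower. Bases outside the windows were not searched, so a gene without a match may hold these letters farther away. In the 250 bases before the start alone, 8 of the 35 genes held the motif (22.9%), against 11.5% of all genes. A match is a description of letters, not a site.

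The 4 genes with the largest absolute fold change and a match before the start are shown, 5′ to 3′ on the gene's strand with the match in capitals. The windows are chr1:21240335-21240584 for Gsta3, chr3:122245307-122245556 for Gclm, chr10:82858956-82859205 for Txnrd1 and chr4:116685349-116685598 for Prdx1, all on the plus strand of GRCm38.p6 and ending 1 base before the start. Txnrd1 has other starts, whose windows hold no match.
Gsta3: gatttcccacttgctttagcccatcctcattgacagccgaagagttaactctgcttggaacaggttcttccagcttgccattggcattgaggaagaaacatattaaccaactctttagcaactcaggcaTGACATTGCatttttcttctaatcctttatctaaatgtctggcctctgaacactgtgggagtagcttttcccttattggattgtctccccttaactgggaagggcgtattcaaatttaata
Gclm: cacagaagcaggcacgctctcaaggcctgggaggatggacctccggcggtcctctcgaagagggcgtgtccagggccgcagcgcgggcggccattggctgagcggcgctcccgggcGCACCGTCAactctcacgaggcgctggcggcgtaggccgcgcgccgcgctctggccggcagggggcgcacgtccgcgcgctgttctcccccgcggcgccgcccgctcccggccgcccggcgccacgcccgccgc
Txnrd1: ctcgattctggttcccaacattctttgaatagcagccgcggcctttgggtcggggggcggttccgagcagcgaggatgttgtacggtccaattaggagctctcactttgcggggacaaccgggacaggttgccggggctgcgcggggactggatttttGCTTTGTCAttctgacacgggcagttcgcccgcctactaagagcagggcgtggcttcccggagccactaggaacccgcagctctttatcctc
Prdx1: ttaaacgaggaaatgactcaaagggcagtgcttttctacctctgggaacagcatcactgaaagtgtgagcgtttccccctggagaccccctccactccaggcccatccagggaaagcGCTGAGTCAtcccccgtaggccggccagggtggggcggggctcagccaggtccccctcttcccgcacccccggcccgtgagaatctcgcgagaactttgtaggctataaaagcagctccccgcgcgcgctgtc
The match begins 121 bases before the start in Gsta3, where it reads TGACATTGC on the strand shown. In the other 3 windows it lies on the opposite strand and reads TGACGGTGC for Gclm, TGACAAAGC for Txnrd1 and TGACTCAGC for Prdx1. The match of Prdx1 also holds the AP-1 site TGACTCA, so the letters of both motifs overlap there, and the matches of Gsta3, Gclm and Txnrd1 do not.

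**Figure D2:**
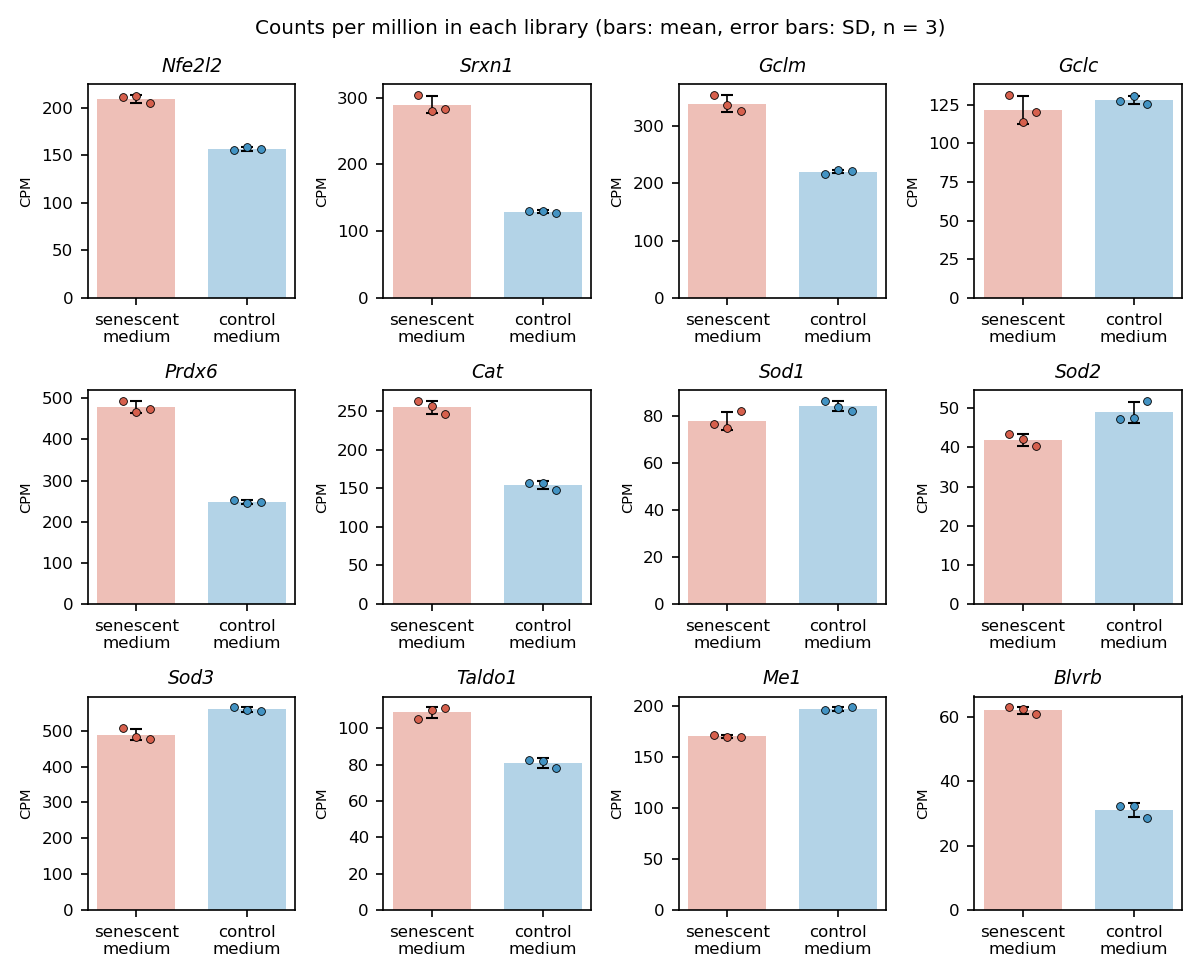
CPM in each library for 12 genes, with bars for the mean and error bars for the SD of 3 libraries, senescent medium at the left of each panel and control medium at the right, each axis starting at 0. Nfe2l2, Srxn1, Gclm, Prdx6, Cat, Taldo1 and Blvrb are higher in all senescent-medium libraries, Gclc overlaps between media, and Sod2, Sod3 and Me1 are lower.

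NADPH, which glutathione reductase and thioredoxin reductase consume, comes in part from the oxidative pentose phosphate pathway and from malic enzyme. All 4 pentose phosphate genes of this group were called higher and malic enzyme gene Me1 was called lower, against 24.6% and 24.9% of all tested genes. The median log2 fold change of the 5 genes was 0.26, and none reached 0.5. G6pdx, which commits glucose 6-phosphate to the pathway, had 183, 174 and 176 CPM in senescent medium and 172, 160.5 and 161 CPM in control medium. The log2 fold change of smallest size among the 5 was that of G6pdx, 0.11 ± 0.039 (adjusted p = 0.0182, edgeR), a call that was lost without senescent-medium replicate 1 (adjusted p = 0.103), without control-medium replicate 2 or 3 (0.0884 and 0.0854) and with library totals (0.554). Pgd, the second NADPH-producing dehydrogenase, rose by 0.26 ± 0.034 on the log2 scale, to 426 ± 10.0 CPM in senescent medium against 356 ± 9.14 CPM in control medium.

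Tkt and Taldo1 belong to the non-oxidative branch, whose enzymes rearrange sugar phosphates and make no NADPH themselves. The other enzymes of that branch, Rpia and Rpe, did not pass, with log2 fold changes of 0.078 ± 0.14 and 0.045 ± 0.066. Tkt, transketolase, was at 274, 274 and 274 CPM in senescent medium and 222, 213 and 217 CPM in control medium (log2 fold change 0.335 ± 0.0345). Taldo1, transaldolase, was at 105, 109.9 and 111 CPM in senescent medium and 82.7, 82.2 and 78.0 CPM in control medium (0.43 ± 0.044, adjusted p = 1.3e-09, edgeR). Me1, the cytosolic malic enzyme, went the other way, with 172, 169.7 and 169 CPM in senescent medium against 196, 196 and 199 CPM in control medium. The media did not overlap for Me1, whose log2 fold change was −0.21 ± 0.036 (adjusted p = 9.87e-06, edgeR). Of the 50-base stretches of Me1 22.9% occur in other genes, and exons of a gene on the opposite strand cover 13.6% of G6pdx.

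Among 13 genes of superoxide and peroxide removal, 7 were higher (53.8%), 3 lower (23.1%) and 3 did not pass, against 24.6% higher and 24.9% lower among all tested genes, so the share that fell was near that of all genes. The median log2 fold change was 0.15, or 0.067 with library totals. The 3 genes that fell were the 3 superoxide dismutases, and the genes that rose were peroxide-removing enzymes. Sod2 (ENSMUSG00000006818), the manganese enzyme of mitochondria, had 43.4, 42.2 and 40.3 CPM in senescent medium and 47.3, 47.6 and 52.0 CPM in control medium (log2 fold change −0.22 ± 0.057, adjusted p = 0.0018, edgeR). Sod3 (ENSMUSG00000072941), the secreted enzyme, had 507, 483 and 477 CPM in senescent medium and 567, 557 and 556 CPM in control medium (−0.19 ± 0.034, adjusted p = 1.4e-05, edgeR). For both genes each senescent library lay below each control library. Sod1, the copper-zinc enzyme of the cytosol, had 76.8, 74.8 and 82.1 CPM in senescent medium and 86.6, 84.0 and 82.3 CPM in control medium.

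The libraries of Sod1 nearly touched, and its call (log2 fold change −0.11 ± 0.047, adjusted p = 0.0439, edgeR) was lost with DESeq2 (adjusted p = 0.118), with no filter on low counts (0.0596), and without senescent-medium replicate 1 or 2 (0.13 and 0.213) or control-medium replicate 1 or 2 (0.0992 and 0.0805). All 3 dismutase genes kept a negative log2 fold change under every alternative tried. Of the 50-base stretches in Sod2 transcripts, 21% occur in other genes.

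The largest rises of this group were those of Prdx6, Cat and Prdx1, whose enzymes remove hydrogen peroxide or lipid peroxides. Not every peroxiredoxin gene rose. Prdx6 (ENSMUSG00000026701), a peroxiredoxin that also reduces phospholipid hydroperoxides, was at 494, 466 and 474 CPM in senescent medium, against 253, 245 and 247 CPM in control medium. The change of 0.95 ± 0.035 on the log2 scale was exceeded by 3.24% of tested genes (adjusted p = 3.85e-20, edgeR). Cat (ENSMUSG00000027187), the peroxisomal catalase, was at 263, 256 and 246 CPM in senescent medium and 157, 157 and 147 CPM in control medium, and rose by 0.73 ± 0.038 on the log2 scale (adjusted p = 2.64e-16, edgeR). For Prdx6 and Cat the lowest senescent library was above the highest control library.

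Prdx1, the abundant cytosolic peroxiredoxin and itself a reported NRF2 target, had 937, 877 and 884 CPM in senescent medium and 648, 659 and 625 CPM in control medium (log2 fold change 0.48 ± 0.034, adjusted p = 3.89e-13, edgeR). The mitochondrial Prdx3 and the more widely located Prdx5 rose by 0.29 ± 0.048 and 0.22 ± 0.041 on the log2 scale. Prdx2, a second cytosolic peroxiredoxin, did not pass, at 239 ± 9.50 CPM in senescent medium and 235 ± 6.26 CPM in control medium (log2 fold change 0.028, interval −0.048 to 0.10), and had a value of −0.053 with library totals. Prdx1 thus passed and Prdx2 did not, and the difference between their changes was not tested. Exons of a gene on the opposite strand cover 19.1% of Prdx5. The level of Srxn1 relative to Prdx1, each per kilobase, was 0.3505, 0.3455 and 0.3456 in senescent medium and 0.2173, 0.2133 and 0.2193 in control medium, again as a description.

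Glutathione peroxidases had small log2 fold changes, between 0.050 and 0.20. Gpx1, the main cytosolic form, rose to 284 ± 5.66 CPM in senescent medium against 257 ± 9.13 CPM in control medium (log2 fold change 0.15 ± 0.036, adjusted p = 0.000877, edgeR), a call lost with library totals (0.067, adjusted p = 0.125). Gpx4, which protects membranes from lipid peroxides, had 62.0, 68.7 and 64.8 CPM in senescent medium and 64.0, 52.9 and 53.5 CPM in control medium, values that overlapped. Its log2 fold change of 0.20 ± 0.063 passed (adjusted p = 0.0126, edgeR), but not without senescent-medium replicate 2 (0.0689), without control-medium replicate 2 or 3 (0.0876 and 0.0627) or with library totals (0.145), and 34.7% of its 50-base stretches occur in a pseudogene. The secreted Gpx3 and the endoplasmic reticulum form Gpx8 did not pass, with log2 fold changes of 0.050 (interval −0.029 to 0.13) and 0.0505 (interval −0.033 to 0.13), both below 0 with library totals (−0.032 and −0.031). Gpx3 passed without control-medium replicate 1 (0.090, adjusted p = 0.024).

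**Figure D3:**
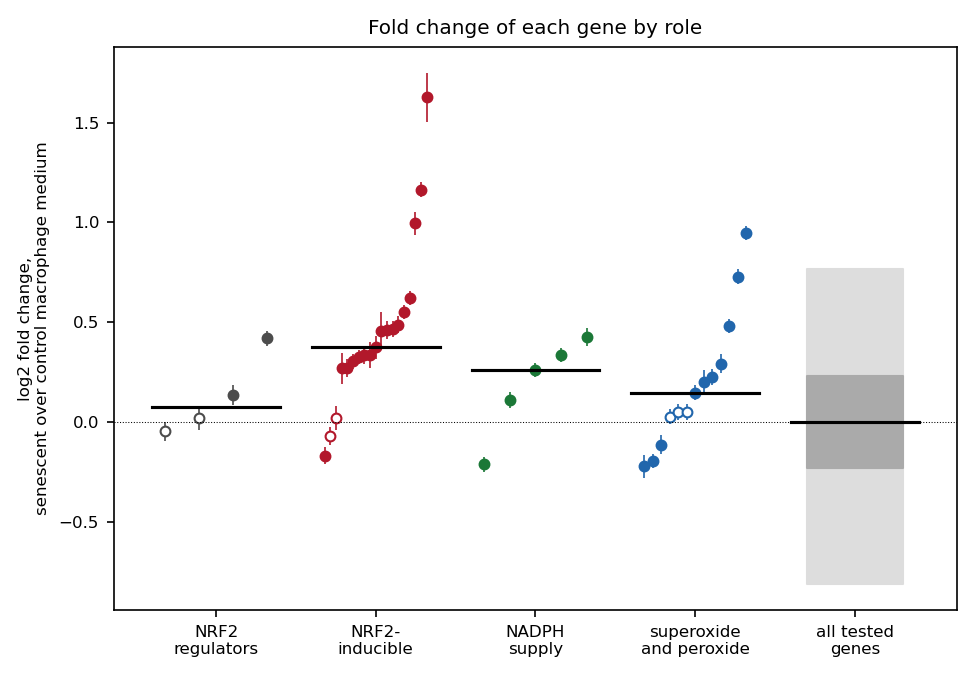
Log2 fold change (senescent over control macrophage medium) of each gene with its SE, by role; filled points passed the adjusted threshold, open points did not, and black lines are group medians. Grey bands at the right span the middle 50% (dark) and 90% (light) of the 14644 tested genes, whose median is −0.0010. Medians are 0.37 for NRF2-inducible genes, 0.26 for the NADPH supply group, which includes Tkt and Taldo1, and 0.15 for superoxide and peroxide genes.

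Set side by side, the 3 enzyme groups had medians of 0.37 for NRF2-inducible genes, 0.26 for NADPH supply and 0.15 for superoxide and peroxide removal, and the 4 regulators had one of 0.078. The range ran from −0.17 to 1.63 in the NRF2-inducible group, from −0.21 to 0.43 in NADPH supply and from −0.22 to 0.95 in superoxide and peroxide removal, so the groups overlapped widely and no difference between them was tested. Summed levels were 3026 ± 68.7 CPM in senescent medium and 2234 ± 50.7 CPM in control medium for the NRF2-inducible genes. For NADPH supply they were 1157 ± 12.2 CPM in senescent medium and 1016 ± 18.6 CPM in control medium. For superoxide and peroxide removal they were 3696 ± 99.1 CPM in senescent medium and 3092 ± 75.7 CPM in control medium (SD, n = 3 each). Prdx1 and the pathway genes G6pdx, Pgd, Tkt, Taldo1 and Me1 are themselves reported as NRF2 targets. With these 6 counted as inducible, 21 of 25 inducible genes were higher with a median of 0.34. Of the 12 remaining superoxide and peroxide genes 6 were higher, with a median of 0.099. Both counts stand against 24.6% of all tested genes. Across the 3 senescent-medium libraries the median log2 level of the inducible genes relative to the control mean was 0.38, 0.38 and 0.37, so no single library carried it.

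Levels per kilobase of merged exons spanned more than 2 orders of magnitude and did not follow the fold changes. In control medium the order was led by Gpx3 at 264, Prdx1 at 212, Gpx1 at 178 and Ephx1 at 175 CPM per kilobase. In senescent medium the same 4 genes led, with Prdx1 first at 296 and Gpx3 next at 273, then Ephx1 at 219 and Gpx1 at 197 CPM per kilobase. At the low end in both media stood Gsta3, at 3.09 CPM per kilobase in senescent medium and 0.993 in control medium, and Aox1, at 2.64 in senescent medium and 2.19 in control medium. Sod2 was low per length as well, at 4.20 in senescent medium and 4.89 in control medium over 10008 bases of merged exons. Merged exons take in every annotated transcript of a gene, so levels per kilobase are understated where the transcripts in use are shorter. Which transcripts were in use was not examined. Across the 41 genes, which share libraries, Spearman's rho between mean level per kilobase and log2 fold change was 0.078.

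**Figure D4:**
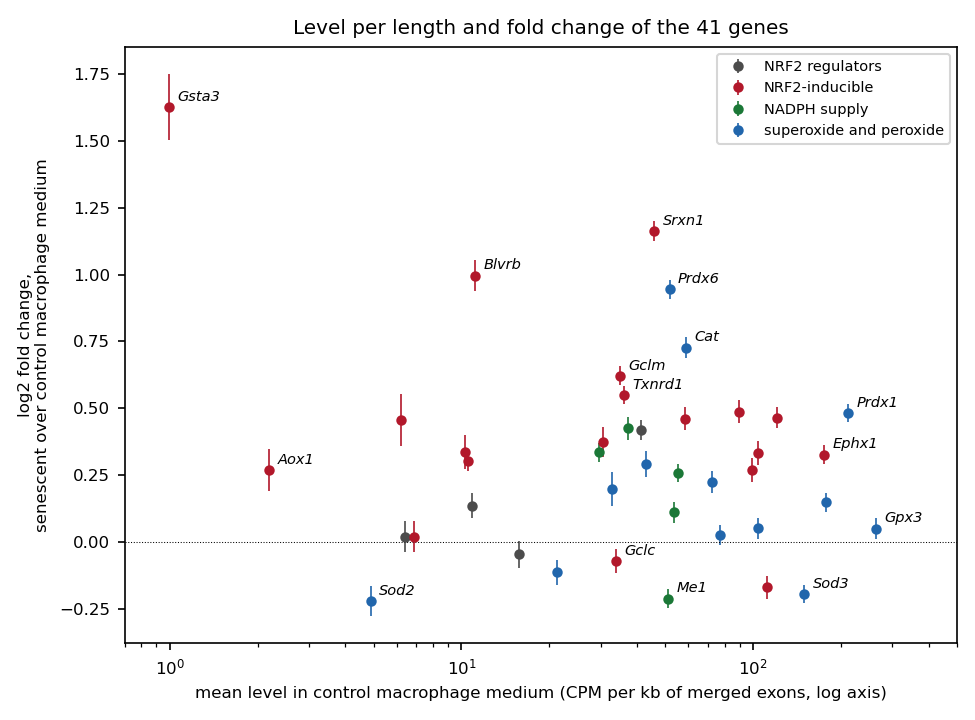
Mean level in control macrophage medium (CPM per kilobase of merged exons, log axis) and log2 fold change with its SE for each of the 41 genes, coloured by role. The largest rise, Gsta3, is the gene with the lowest level, and the genes with the highest level, Gpx3 and Prdx1, have log2 fold changes of 0.050 and 0.48.

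A selenocysteine record in the GENCODE annotation was found for 4 of the 41 genes, Txnrd1, Gpx1, Gpx3 and Gpx4, whose catalytic residue contains selenium. Of these, 3 were higher and Gpx3 did not pass, with a median log2 fold change of 0.17. Genes for making selenoproteins and handling selenium, none of them among the 41, were higher in 5 of 12 cases (41.7%) and lower in 3 (25%), against 24.6% and 24.9% of all tested genes. Selenbp1, a selenium-binding protein, rose by 1.25 ± 0.17 and Scly, which releases selenium from selenocysteine, by 0.72 ± 0.088 on the log2 scale. Lrp8, a receptor that takes up selenoprotein P, and Sephs1, a relative of the selenophosphate synthetase, had log2 fold changes of −0.77 ± 0.096 and −0.76 ± 0.057.

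Other genes of the same systems were listed by function, also with earlier results of these data known. Their counts stand against 24.6% higher and 24.9% lower among all tested genes. The genes named are those with the largest called changes at 5 CPM or more. Of 29 tested further genes reported as NRF2 targets, 21 were higher (72.4%) and 5 lower, with a median log2 fold change of 0.28. Sqstm1 is counted as higher here and again among the further regulators below. Slc7a11, the cystine importer that feeds glutathione synthesis, rose to 16.3 ± 1.48 CPM in senescent medium against 7.26 ± 0.581 CPM in control medium (log2 fold change 1.17 ± 0.11, adjusted p = 9.87e-11, edgeR), and the alcohol dehydrogenase gene Adh7 rose by 1.15 ± 0.13. The exporter gene Abcc3 and the aldo-keto reductase gene Akr1b10 had log2 fold changes of −0.70 ± 0.13 and −0.33 ± 0.082. Of 15 tested further regulators 6 were higher and 3 lower; the KEAP1-binding autophagy receptor gene Sqstm1 and the ubiquitin ligase gene Trim21 had the largest rises (1.06 ± 0.034 and 0.92 ± 0.13), and the DNA repair gene Brca1 and the ubiquitin ligase gene Btrc the largest falls (−1.41 ± 0.12 and −0.15 ± 0.062).

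Of 30 further genes listed as glutathione enzymes 7 were higher and 7 lower (23.3% each), near the 24.6% and 24.9% of all tested genes. Their median log2 fold change was −0.055. The list includes Ggcx, a gamma-glutamyl carboxylase gene that does not belong to glutathione metabolism and did not pass. Chac1, which degrades glutathione, rose by 1.10 ± 0.13 and Esd, an S-formylglutathione hydrolase, by 0.56 ± 0.037, while the theta-class transferase gene Gstt1 and Oplah, of the cycle that rebuilds glutathione, had −1.09 ± 0.085 and −0.61 ± 0.088. Of 21 further thioredoxin, peroxide and methionine sulfoxide enzymes 10 were higher and 7 lower, led by Msra (0.67 ± 0.15) and Sesn2 (0.59 ± 0.042) among rises and by Sesn1 (−0.80 ± 0.082) and Msrb2 (−0.48 ± 0.15) among falls. Of 17 further genes listed with NADPH supply 6 were higher and 6 lower. That list includes Rpia and Rpe, whose enzymes make no NADPH themselves, and the NAD kinase genes Nadk and Nadk2. The mitochondrial folate enzyme genes Mthfd1l and Aldh1l2 rose by 0.59 ± 0.064 and 0.54 ± 0.064, and the NAD kinase gene Nadk2 and the isocitrate dehydrogenase gene Idh2, both mitochondrial, had −0.71 ± 0.068 and −0.51 ± 0.060. Of 12 tested genes of oxidant-producing enzymes 6 were higher and 1 lower. Ero1l, the oxidase of the endoplasmic reticulum, rose by 1.49 ± 0.042 and Xdh, xanthine dehydrogenase, to 252 ± 6.23 CPM in senescent medium against 138 ± 4.57 CPM in control medium (0.87 ± 0.038), while the amine oxidase gene Aoc3 changed by −0.12 ± 0.042.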

How the data were processed

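RNA was taken from 6 cultures (3 in senescent and 3 in control macrophage medium) and sequenced as paired 150 bp reads, per the labels' protocols. The deposited values are estimated counts per Ensembl gene, not normalized, with 17228162 to 21659434 per library; the submitters' processing notes name STAR, DESeq2 and mm39 without their roles. What counted the reads, against which annotation release and with which use of strand, is not given in the sources used here.

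Counts were rounded and tested with edgeR 4.0.16 in R 4.3.3 (quasi-likelihood F-test, robust, TMM scaling, edgeR's expression filter, medium as the only term, two-sided, Benjamini-Hochberg over 14644 genes), after the procedure was tested on simulated data. SEs are the absolute log2 fold change over the square root of F; CPM use TMM-adjusted totals. Symbols, exon lengths, overlaps, shared 50-base stretches and selenocysteine records came from GENCODE M21 (GRCm38), with a symbol for 18092 of 18124 identifiers (99.8%); promoter windows came from RefSeq on GRCm38.p6. No protein sequences were used here. The genes, roles and lists were chosen with earlier results of these data known. Library values are given for the 4 regulators, for genes called at a log2 fold change of 0.5 or more in size, and for Nqo1, Gclc, Gclm, Txnrd1, Gsr, Sod2 and Cat. Those of G6pdx, Tkt, Taldo1, Me1, Sod1, Sod3, Prdx1 and Gpx4, and the 3 ratios between genes, were added after their values were seen. So were the values of Rpia, Rpe, Cbr1, Akr1b3, Akr1a1, Akr1b8, Akr1c13 and single marker genes. Of each further list the 2 largest rises and 2 largest falls that reach 5 CPM in either group are named. Alternatives were DESeq2 1.42.0, limma-voom (limma 3.58.1), other scalings and filters, removal of the most abundant feature, a block for the replicate number, leaving out single libraries, another assignment of roles, and a shorter promoter window.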

Additional observations from a re-analysis of the deposited data

How the results depend on the processing

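Counts stayed within 1.5 times the reported count under every alternative run. For the 41 genes they were 25 to 30 called higher and 4 to 7 called lower. Called higher were 16 NRF2-inducible genes, 5 to 8 superoxide and peroxide genes and 3 or 4 genes of the NADPH supply group. With library totals alone, the median of all tested genes shifted by −0.081 and the group medians were −0.0029 (regulators, a change of sign), 0.29 (NRF2-inducible), 0.18 (NADPH supply) and 0.067 (superoxide and peroxide); Bach1 (−0.061), Gss (−0.061), Prdx2 (−0.053), Gpx3 (−0.032) and Gpx8 (−0.031) changed sign, 4 genes lost their call and 2 gained one, and the cause was not tested. With 6 genes moved to the NRF2-inducible group its median was 0.34, and that of the remaining superoxide and peroxide genes 0.099. Leaving out 1 library at a time gave NRF2-inducible medians of 0.34 to 0.40, and values on both sides of 0 for Bach1 (−0.0098 to 0.060) and Gss (−0.025 to 0.050, and −0.0009 without senescent-medium replicate 1), neither of which passed. The promoter motif was found in 8 genes before the start in place of 11. Deviations of same-numbered libraries correlated at 0.019, 0.0019 and 0.026. With 3 libraries per medium these values cannot tell whether libraries of the same number share cells or medium. With the replicate number as a block, 29 of the 41 genes were higher and 5 lower and no call among them changed. Of all tested genes 3704 were then higher and 3698 lower. Senescent-medium replicates 1 and 3 correlated best with their own number, and replicate 2 with control-medium replicate 1 (0.027). The calls of Mafg, G6pdx, Sod1 and Gpx4 depended on the scaling, the tool or single libraries, and that of Gpx1 was lost with library totals. Keap1 gained a call with library totals, and Gclc with library totals or without senescent-medium replicate 1. Gpx3 gained one without control-medium replicate 1. What depth limits was not tested.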
